A study of Mus musculus with 743 samples.

Results

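The Hippo pathway was examined in single Schwann cells (SCs) of the newborn mouse sciatic nerve through 10 genes chosen by name: the co-activators Yap1 and Wwtr1 (the gene of Taz), the DNA-binding partners Tead1, Tead2, Tead3 and Tead4, the kinases Lats1 and Lats2, and the secreted-protein genes Ccn1 (Cyr61) and Ccn2 (Ctgf). They are 10 of the 25700 genes in the count table, and all 10 had at least 1 read. The cells came from sciatic nerves at postnatal day 1 of reporter mice that also carried a βActin-driven DsRed, in which a Cre active in the SC lineage switches on eYFP, so the eYFP gate that selected these cells selected that lineage and not a stage of it. Single eYFP-positive cells were sorted into 384-well plates and sequenced by Smart-Seq2, which reads whole transcripts without molecular identifiers. There were 2 plates, each filled from a separate pool of 1 male and 1 female mouse, and 743 wells in all. The plate is the replicate throughout (n = 2), and no untreated or mutant group enters the comparison: all cells share 1 genotype and 1 age.

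Of the 743 wells, 621 had at least 1500 genes with a read and were kept, 287 in plate 1 and 334 in plate 2. A cell was called cycling when Mki67 and Top2a together reached 50 CPM (counts scaled to a sum of 1000000 per cell), promyelinating when it was not cycling and Ncmap, a gene of myelin-forming SCs, reached 50 CPM, and other when neither held. This gave 59 and 60 promyelinating cells, 53 and 57 cycling cells, and 175 and 217 other cells in plates 1 and 2. Few cells lay near the limits: among cells that were not cycling, 4 had 25 to 50 CPM of Ncmap and 5 had 50 to 100 CPM. The reads of each class and plate were added up, giving 6 sums of 45073128 to 172878954 reads. Median genes per cell were higher in promyelinating (3690 and 3550) and cycling cells (3425 and 3477) than in other cells (2775 and 2819), so shares of cells with a read are given below also after thinning each cell to 50000 reads. SC identity held in nearly all cells, since only 17 of 621 lacked a read of every one of Sox10, S100b and Erbb3. Markers of other nerve cells were low in every sum: the endothelial list reached at most 2.92 CPM, the immune list 20.7 CPM, the fibroblast list 36.7 CPM, the mural list 56.8 CPM and the perineurial list 67.4 CPM.

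In the Hippo pathway, the kinases Mst1/2 activate Lats1 and Lats2, and these phosphorylate Yap and Taz, which are then held in the cytoplasm or degraded. When the kinases are inactive, Yap and Taz enter the nucleus and bind Tead proteins, which carry the DNA-binding domain, and genes such as Ccn1 and Ccn2 are switched on. In SCs, Yap, Taz and Tead1 are known to be needed for radial sorting of axons, for proliferation and for myelin gene expression. The pathway is therefore read here in cells that divide, in cells that begin to form myelin and in the rest. Because its control acts largely on protein phosphorylation and location, transcript levels of Yap1, Wwtr1 or the kinases do not measure activity.

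A Tead protein recognises a short core, GGAATG, and the windows of 250 bases before a gene start (RefSeq, build GRCm38.p6) were searched for these letters on both strands. They were found in 12.6% of all 32851 windows. For the 10 genes studied, 7 had a window, and 4 of these 7 (Yap1, Wwtr1, Tead3 and Ccn1) had a match in at least 1 of their windows. The 11 windows of these 7 genes are not independent, since some overlap, and 6 of them held a match. The 12.6% counts windows, and no share per gene was computed over all genes. Of the lists followed below, a match was held by 6 of 10 windows of adaptors and cofactors and 5 of 14 of other target genes. For the kinase cascade it was 3 of 14, for STRIPAK 1 of 7 and for the SC genes tied to the pathway 2 of 9. The sequences below belong to 4 of the 5 Hippo genes that passed in promyelinating against other cells (Ccn1, Vgll3, Pmp22 and Igfbp3), plus Wwtr1 as the more abundant co-activator. The fifth was Asap1, for which no window was at hand. Igfbp3 is shown because its window holds no match. They run 5′ to 3′ in the direction of the gene and end at the base before its start, with capitals marking the match. In the windows of Ccn1, Vgll3 and Pmp22 the match lies on the opposite strand, so that CATTCC is printed. Ccn1 is read from chr3:145649986-145650235 (minus strand), Vgll3 from chr16:65814939-65815188 (plus strand), Pmp22 from chr11:63128732-63128981 (plus strand), Igfbp3 from chr11:7213924-7214173 (minus strand) and Wwtr1 from chr3:57575877-57576126 (minus strand).
Ccn1: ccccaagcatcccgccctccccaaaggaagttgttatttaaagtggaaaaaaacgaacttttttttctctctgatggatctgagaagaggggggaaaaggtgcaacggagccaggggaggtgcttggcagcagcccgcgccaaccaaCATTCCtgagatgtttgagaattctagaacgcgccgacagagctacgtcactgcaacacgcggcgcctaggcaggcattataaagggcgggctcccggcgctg
Vgll3: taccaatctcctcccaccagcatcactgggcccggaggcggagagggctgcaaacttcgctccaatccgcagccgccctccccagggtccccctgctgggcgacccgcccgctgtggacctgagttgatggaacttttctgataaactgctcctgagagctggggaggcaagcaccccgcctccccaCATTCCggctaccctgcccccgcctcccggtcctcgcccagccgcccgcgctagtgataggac
Pmp22: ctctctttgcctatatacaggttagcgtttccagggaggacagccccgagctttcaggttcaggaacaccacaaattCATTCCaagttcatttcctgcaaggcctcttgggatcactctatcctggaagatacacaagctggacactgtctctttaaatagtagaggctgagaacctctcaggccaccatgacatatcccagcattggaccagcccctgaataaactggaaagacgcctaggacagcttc
Igfbp3: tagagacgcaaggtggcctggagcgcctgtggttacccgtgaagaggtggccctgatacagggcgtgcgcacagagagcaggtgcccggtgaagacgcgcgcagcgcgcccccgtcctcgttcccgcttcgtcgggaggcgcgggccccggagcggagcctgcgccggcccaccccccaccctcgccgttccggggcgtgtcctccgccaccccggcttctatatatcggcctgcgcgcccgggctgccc
Wwtr1: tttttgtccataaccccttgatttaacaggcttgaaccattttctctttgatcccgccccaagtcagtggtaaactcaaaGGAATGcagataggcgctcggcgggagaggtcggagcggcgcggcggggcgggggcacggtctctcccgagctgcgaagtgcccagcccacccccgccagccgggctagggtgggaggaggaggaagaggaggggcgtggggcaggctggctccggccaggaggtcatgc
The match lay 98 bases before the start of Ccn1, 58 bases before that of Vgll3, 168 bases before the start of Pmp22 shown and 165 bases before the start of Wwtr1 shown, counted to its base nearest the start. Pmp22 has 4 windows, and only the one printed, before the first start, holds a match. Wwtr1 has 2 overlapping windows, and the same match lies 131 bases before the other start. None of these 5 windows held the AP-1 letters TGANTCA (in 6.75% of all windows), TGACGTCA (1.55%) or a CArG box (1.47%). The windows of Fos, Fosb, Junb and Atf3, genes of the immediate-early response, held none of them either. A match says only that the letters are present, and the lack of one in such a window says nothing on how a gene is controlled.

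Per length, Ccn1 was by far the most abundant of the 10 transcripts and Ccn2 was almost absent. Levels are given as TPM (reads over the combined exon length of the gene, scaled to a sum of 1000000 per plate), computed from all kept cells, as mean ± SD over the 2 plates. Ccn1 stood at 1818 ± 528 TPM, Wwtr1 at 69.3 ± 7.14, Tead1 at 27.4 ± 0.910, Lats2 at 24.8 ± 8.29 and Tead2 at 22.8 ± 10.6. Lats1 had 6.65 ± 1.22 TPM, Yap1 5.97 ± 0.106, Tead4 1.321 ± 1.13, Tead3 1.27 ± 0.655 and Ccn2 0.848 ± 1.15 TPM. The plates of Tead1, Lats2 and Tead2 overlapped, as did those of Lats1 and Yap1 and those of the 3 lowest genes, so the order within each of these groups is not resolved. With the longest transcript as the length instead, Yap1 (8.07 TPM) came above Lats1 (5.19 TPM). Reads of Yap1, Tead2 and Ccn2 could include reads of genes on the opposite strand that overlap their exons (Gm20416, Cd37 and Gm15270), because use of strand in counting is not stated, and Lats2 overlaps Gm49361 on its own strand.

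**Figure D1:**
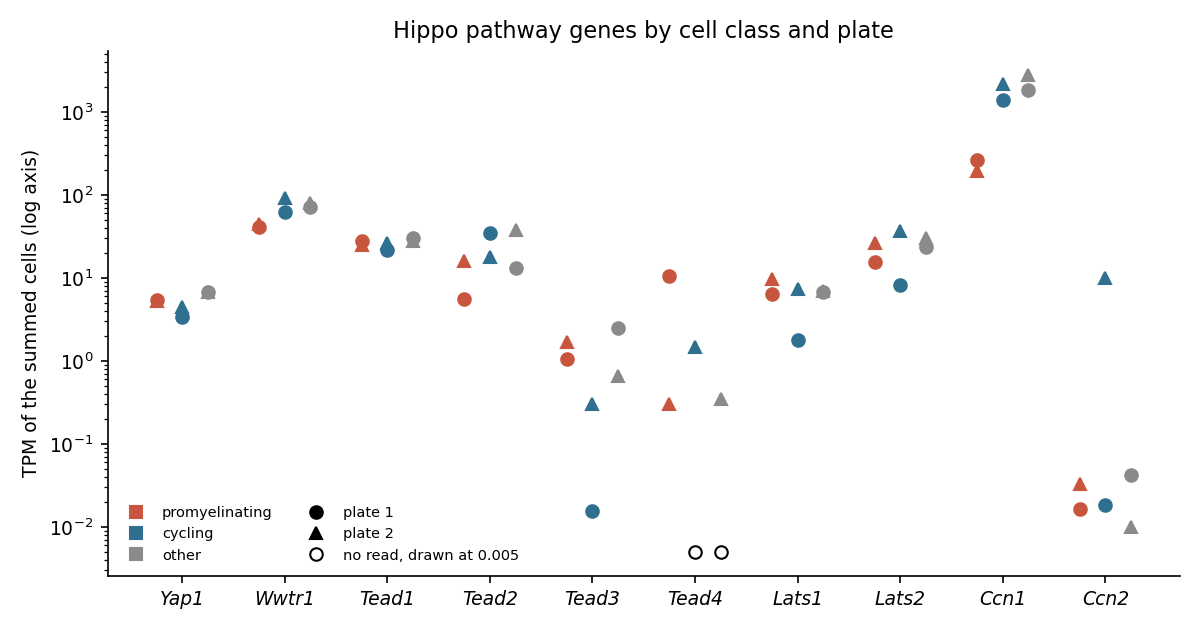
TPM (log axis) of the 10 genes in the summed cells of each class (colour) and plate (symbol); open symbols stand for sums with no read. Ccn1 is lower in both promyelinating sums (264 and 191 TPM) than in the other 4 sums, while most of the other genes overlap between classes.

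Taz was the main co-activator transcript. Wwtr1 (chr3:57455649-57575910) exceeded Yap1 (chr9:7931999-8004596) 10.9-fold in plate 1 and 12.3-fold in plate 2 on the TPM scale. The ratio was 7.57 and 8.35 in promyelinating cells, 18.5 and 20.4 in cycling cells and 10.7 and 11.9 in other cells, so the classes did not overlap. That difference in ratio was not tested, and the Yap1 reads came from few cells. The 3 highest cells held 56.41% and 56.29% of them in promyelinating cells and 63.74% and 71.85% in cycling cells (plates 1 and 2). In other cells, which are more numerous, they held 33.5% and 35%. The size of the ratio depends on the length used. With the longest transcript, Wwtr1 stood at 50.5 and 58.4 TPM and Yap1 at 7.96 and 8.17 TPM over all kept cells, a smaller gap. Yap1 was read in 20.1% ± 1.69 of cells and Wwtr1 in 55.6% ± 1.17 (SD, n = 2 plates). After thinning these shares were 15.2% ± 2.69 and 47.9% ± 0.478. The 124 cells with a Yap1 read were 19.97% of all 621. At full depth, a read of either gene was present in 60 to 79% of the cells of each class and plate.

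For Wwtr1, the promyelinating sums held 81.8 and 87.0 CPM, the cycling sums 122 and 173 CPM and the other sums 142 and 152 CPM. Both promyelinating sums lay below all the rest. In the fit across all genes (the quasi-likelihood test of edgeR, p-values adjusted after Benjamini and Hochberg), the log2 fold change of promyelinating against other cells was -0.72 (SE 0.289, p = 0.0361, adjusted p = 0.401), and against cycling cells it was -0.85 (SE 0.290, adjusted p = 0.148). Neither passed the threshold of 0.05. Yap1 held 20.9 and 20.2 CPM in promyelinating cells, 12.7 and 16.4 CPM in cycling cells and 25.7 and 24.8 CPM in other cells. Its log2 fold changes against other cells were -0.22 (SE 0.628) in promyelinating and -0.67 (SE 0.631) in cycling cells, with adjusted p of 0.969 and 0.816 by edgeR.

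Tead1 (chr7:112679318-112906807) was the Tead gene detected in most cells, in 79.0% ± 2.08, and its level was alike in the 6 sums, from 120 to 167 CPM. The log2 fold change of Tead1 was -0.01 (SE 0.262) in promyelinating and -0.15 (SE 0.262) in cycling cells against other cells. Those SEs leave room for moderate differences either way. At least 1 Tead transcript was read in 79 to 93% of the cells of each class and plate.

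Tead2 did not pass in any comparison, and its level in cycling and in other cells differed by about as much between plates as between classes. It held 10.9 and 31.3 CPM in promyelinating cells, 66.6 and 34.0 CPM in cycling cells and 25.5 and 73.0 CPM in other cells. Accordingly, cycling cells had more Tead2 than other cells in plate 1 and less in plate 2 (log2 ratios 1.48 and -0.97). Promyelinating cells had less Tead2 than other cells in both plates, by log2 ratios of -1.11 and -1.11 (fitted log2 fold change -1.14, SE 0.728, adjusted p = 0.653, edgeR). Tead1 exceeded Tead2 per length in both promyelinating sums, 5.10-fold and 1.58-fold, while in cycling and in other cells the order of the pair changed with the plate. Reads of Tead2 came from few cells: in promyelinating cells the 3 highest cells held 95.1% and 71.7% of them. A Tead2 read was present in 40.1% ± 2.06 of cycling cells, 25.8% ± 3.31 of other cells and 20.1% ± 4.51 of promyelinating cells, and in 30.2% ± 1.93, 18.2% ± 3.16 and 12.9% ± 8.62 after thinning.

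Tead3 and Tead4 were near the limit of detection. Tead3 was read in 43 of 621 cells. Tead4 was read in 12 of 621 cells, and 9 of these were promyelinating: 7 of 59 in plate 1 and 2 of 60 in plate 2. This share of 7.56% (exact Clopper-Pearson 95% interval 3.52 to 13.9%) stood beside 1 of 110 cycling cells (0.909%, 0.0230 to 4.96%) and 2 of 392 other cells (0.510%, 0.0619 to 1.83%). These intervals cover counting error only. In plate 1, 0 of 53 cycling and 0 of 175 other cells had a read, which allows shares of up to 5.66% and 1.71% when the limit is set at 3 cells of those counted, a simpler limit than the intervals above. Summed over cells, Tead4 reached 15.6 CPM in promyelinating cells of plate 1 and 0.442 CPM in those of plate 2, and the fold change against other cells had an SE of 3.49 on the log2 scale (adjusted p = 0.685, edgeR).

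**Figure D2:**
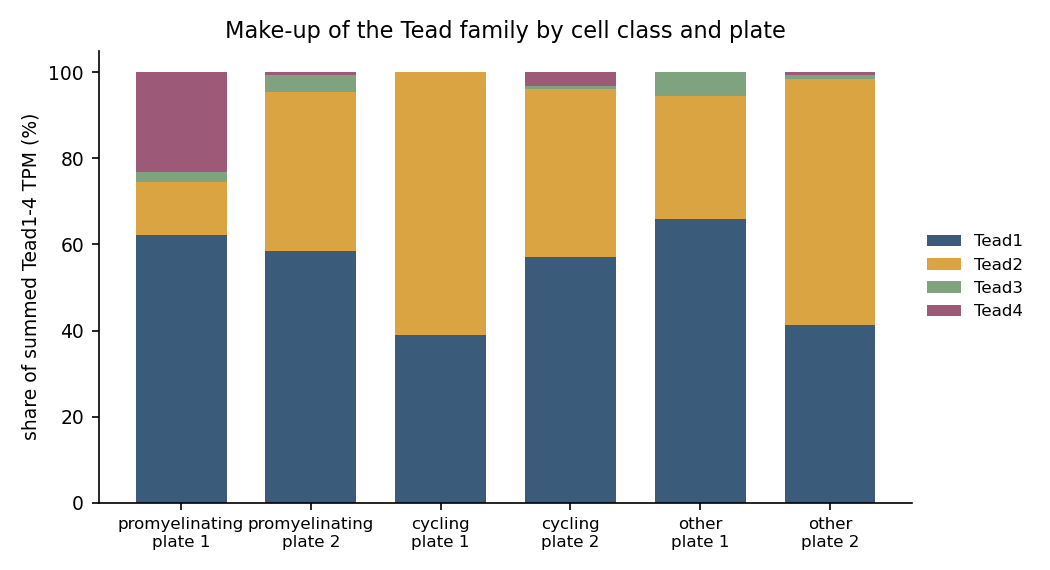
Share (%) of the summed Tead1 to Tead4 TPM held by each gene, 1 bar per class and plate. Tead1 and Tead2 make up most of every bar, Tead2 ranges from 12.2% to 61.1%, and Tead4 is seen as 23.3% of the bar of promyelinating cells of plate 1 against 0.695% in plate 2.

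Among the kinases, Lats2 exceeded Lats1 per length in every class and plate, by 2.43 to 5.08-fold. Lats2 held 45.0 and 76.1 CPM in promyelinating, 23.3 and 102 CPM in cycling and 66.4 and 84.9 CPM in other cells. The spread between plates was wider than the differences between classes. Lats1 held 19.4 and 29.4 CPM in promyelinating, 5.27 and 21.1 CPM in cycling and 20.2 and 20.1 CPM in other cells. Its reads came from few cells: the 3 highest held from 47.5% (other cells, plate 2) to 99.6% (cycling cells, plate 1) of them. Neither kinase passed the test in any comparison, with SEs of 0.632 for Lats2 and 0.798 for Lats1 in promyelinating against other cells.

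Ccn1 was the 1 gene of the 10 that passed the test between classes. It encodes a secreted matricellular protein that binds integrins, and it is a widely used readout of Yap and Taz and also a gene of the immediate-early response. In promyelinating cells Ccn1 (chr3:145646976-145649981) held 221 and 158 CPM, in cycling cells 1129 and 1751 CPM and in other cells 1535 and 2278 CPM. Both promyelinating sums were far below the remaining 4. By edgeR, Ccn1 was 9.48-fold lower in promyelinating than in other cells (log2 fold change -3.25, SE 0.293, adjusted p = 0.00122) and 7.83-fold lower than in cycling cells (log2 fold change -2.97, SE 0.290, adjusted p = 0.000831). Cycling and other cells did not differ detectably (log2 fold change -0.28, SE 0.269, adjusted p = 0.827).

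**Figure D3:**
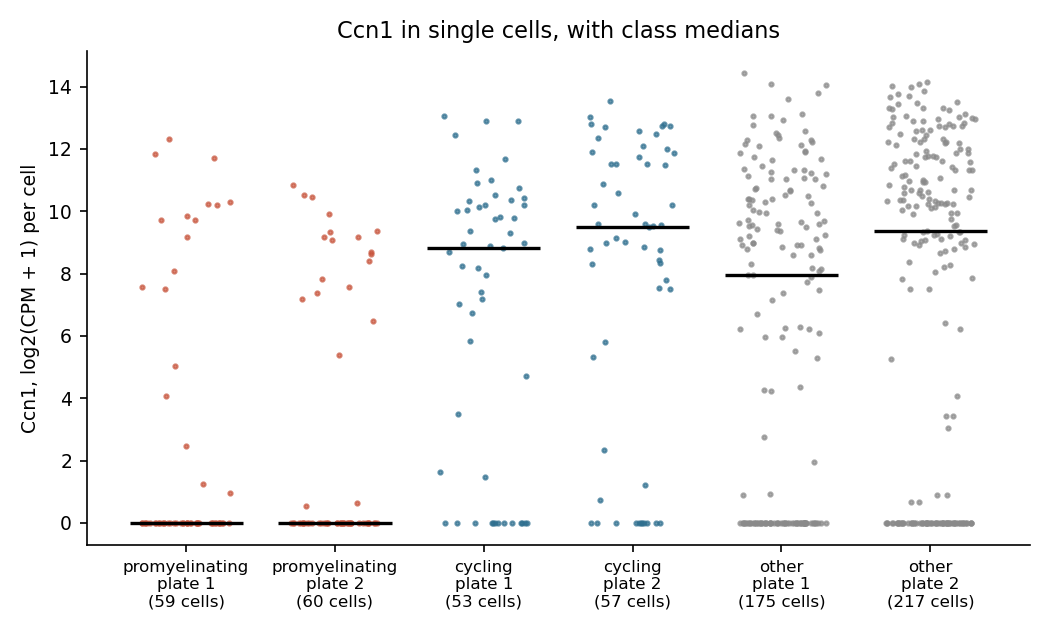
Ccn1 in each cell as log2(CPM + 1), by class and plate, with the median as a black bar. The median of promyelinating cells is 0 in both plates, and those of cycling cells are 448 and 723 CPM.

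The lower Ccn1 level went with fewer cells that had a read. In promyelinating cells 31.9% ± 2.00 had one (SD, n = 2 plates), against 78.1% ± 3.70 of cycling and 65.8% ± 3.38 of other cells. After thinning to 50000 reads the shares were 28.2% ± 1.55, 74.3% ± 1.67 and 62.4% ± 2.56. Among the promyelinating cells with a read, the median was 710 CPM in plate 1 and 407 CPM in plate 2. The same medians were 874 and 1074 CPM in cycling and 978 and 1959 CPM in other cells. The 3 highest cells held 48.3% and 61.3% of the promyelinating reads in plates 1 and 2, beside 41.0% and 27.4% in cycling and 26.9% and 12.5% in other cells, which are more numerous.

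Ccn2, the close relative of Ccn1 and an equally common readout of the pathway, was read in 11 of 621 cells. A single cycling cell of plate 2 held all but a few of its reads, 537 CPM. The other 5 sums were at or below 0.05 CPM, and Ccn2 did not pass the filter on low counts, so it was not tested. Thus 9 of the 10 genes were tested.

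Counted over the members, 1 of 9 passed in promyelinating against other cells (Ccn1, lower), 0 of 9 in cycling against other cells and 1 of 9 in promyelinating against cycling cells (Ccn1, lower). Across all 13289 genes tested by edgeR, 1.76% passed in the first comparison (0.489% higher, 1.27% lower), 0.971% in the second (0.865% higher, 0.105% lower) and 5.85% in the third (2.09% higher, 3.75% lower). In cycling against other cells 0 of 9 members were under an unadjusted p of 0.05, beside 1328 of all 13289 genes. DESeq2 and limma also called 0 members there. The median log2 fold change of the members was -0.22, -0.16 and 0.14 in the 3 comparisons, beside -0.07, -0.07 and -0.02 over all genes tested.

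The difference in Ccn1 ran beside differences in genes that rise when tissue is dissociated. The list of 8 held immediate-early genes and the heat-shock genes Hspa1a and Hspa1b. Of the 8, 4 were also lower in promyelinating than in other cells by edgeR: Atf3, Ier2, Fos and Egr1. Over all genes tested, 1.27% were lower. Fosb and Junb did not pass (log2 fold changes -2.55 and -1.645), nor did Hspa1a and Hspa1b (-0.27 and 0.57). The list summed to 2205 and 2418 CPM in promyelinating, 4726 and 7160 CPM in cycling and 5842 and 6380 CPM in other cells. Across single cells of both plates, the genes most like Ccn1 by Spearman's rank correlation of log2(CPM + 1), among 3708 genes of at least 50 CPM, were Ier2 (0.470 and 0.550 in plates 1 and 2), Fos (0.417 and 0.533) and Spry2 (0.501 and 0.447). These values are a description over cells that share a library preparation and differ in depth. Within promyelinating cells the rank correlation of Ccn1 with Ier2 was -0.12 and -0.05, against 0.486 and 0.649 in cycling and 0.458 and 0.518 in other cells. The best matches of the other 4 members that were read in enough cells, Wwtr1, Tead1, Tead2 and Lats2, reached at most a mean rank correlation of 0.201, which in such sparse counts is no finding.

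Ccn1 was also read in cells with no read of Atf3, an immediate-early transcription factor. This split left out 0 and 3 promyelinating, 14 and 22 cycling and 60 and 73 other cells (plates 1 and 2). It therefore changed mainly the 2 classes other than promyelinating. In the cells without an Atf3 read, Ccn1 held 221 and 161 CPM in promyelinating, 773 and 1066 CPM in cycling and 782 and 1037 CPM in other cells. The log2 fold change of promyelinating against other cells was -2.17 (adjusted p = 0.0108, edgeR). In cells with no read of Ier2, another immediate-early gene, Ccn1 held 248 and 141 CPM in the 46 and 39 promyelinating cells, 411 and 569 CPM in the 68 and 61 other cells, and 76.7 and 472 CPM in the 10 and 15 cycling cells. Promyelinating cells still lay below other cells in both plates there, while the plates of cycling cells lay on both sides of them. The log2 fold change against other cells was -1.29 (adjusted p = 1 by edgeR), and against cycling cells -0.53 (adjusted p = 0.794), so neither call remained. Over all kept cells these 2 log2 fold changes were -3.25 and -2.97, so the size of the difference also fell. In this setting, which holds fewer cells, 15 of all genes passed in the first of these comparisons, beside 234 over all kept cells. Both splits were chosen after the data were seen, and Ier2 was the gene most like Ccn1 over these same cells. Its rank correlation with Ccn1 was 0.458 to 0.649 in cycling and other cells and near or below 0 in promyelinating cells. Leaving out cells with an Ier2 read thus lowers Ccn1 mainly in the classes compared with promyelinating cells. The Ier2 split therefore cannot tell how much of the Ccn1 difference goes with the dissociation response, and this was not tested further.

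**Figure D4:**
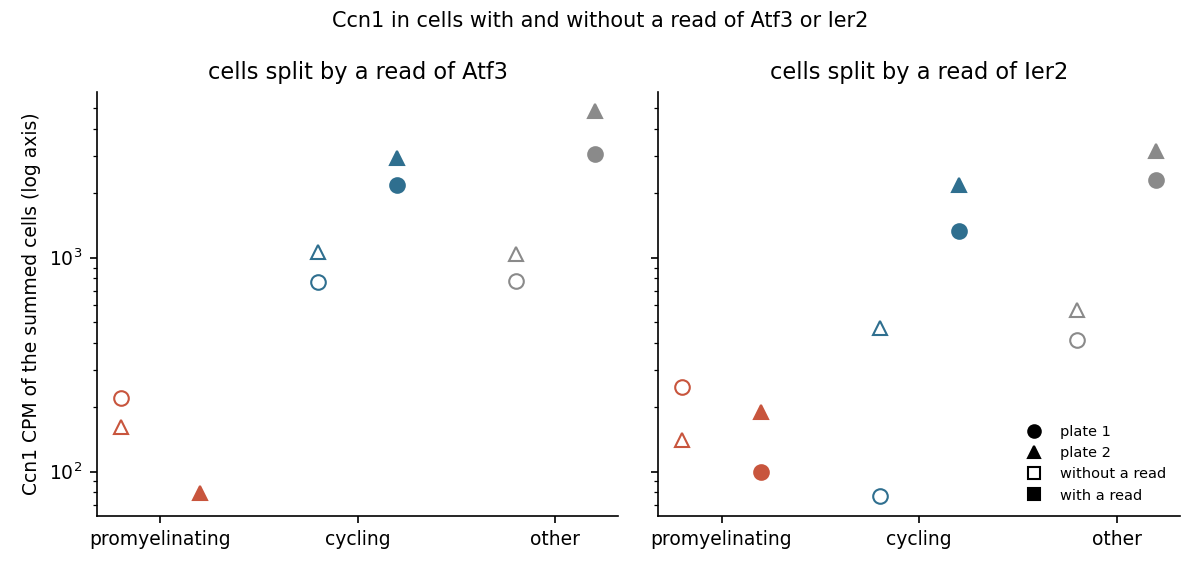
Ccn1 CPM (log axis) of the summed cells of each class and plate, with filled symbols for cells with a read of Atf3 (left) or Ier2 (right) and open symbols for cells without. Cells with a read have more Ccn1 in the cycling and other classes, and the gap to promyelinating cells is narrower in cells without a read of Ier2. No promyelinating cell of plate 1 had a read of Atf3.

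The members were read in the same cells only loosely. At 50000 reads per cell, Lats2 was read in 30.0% of cells with and 18.3% of cells without a read of Ccn1 in plate 1, and in 36.9% and 23.5% in plate 2. For Wwtr1 these shares were 50% and 46.0% in plate 1 and 51.5% and 41.7% in plate 2. Wwtr1 was read in 52.3% of cells with a Tead1 read and 39.6% of those without in plate 1, and in 45.5% and 51.3% in plate 2, so this pair had opposite directions in the plates. These shares carry no test, and at that depth cells of the classes still differed in genes detected (medians of 2311 to 3070).

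The rest of the pathway was followed through 56 genes in 5 lists, of which 51 were tested. In promyelinating against other cells 4 of 51 passed, 2 higher (Pmp22 and Asap1) and 2 lower (Igfbp3 and Vgll3). In cycling against other cells 0 of 51 passed by edgeR, and DESeq2 called 1. There 2 of 51 had an unadjusted p under 0.05, beside 1328 of all 13289 genes. In promyelinating against cycling cells 6 of 51 passed, 3 higher (Pmp22, Asap1 and Egr2) and 3 lower (Igfbp3, Ccdc80 and Vgll3). Over all 13289 genes tested by edgeR, 1.76%, 0.971% and 5.85% passed in these 3 comparisons. The same shares stand beside the counts of each list below.

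None of the 15 genes of the kinase cascade and none of the 7 genes of STRIPAK, the phosphatase complex that turns Mst1/2 off, passed in any of the 3 comparisons by edgeR. In promyelinating against other cells, an unadjusted p under 0.05 was reached by 1 of the 15 and 0 of the 7, beside 1476 of all 13289 genes. Taok1, a kinase upstream of Mst1/2, held 154 and 124 CPM in promyelinating, 184 and 201 CPM in cycling and 243 and 201 CPM in other cells (log2 fold change promyelinating against other -0.60, SE 0.253, adjusted p = 0.433), and passed when cells were thinned to 50000 reads (adjusted p = 0.0486). Map4k4, a parallel kinase that acts on Lats1/2, held 180 and 168 CPM in promyelinating cells and 164 and 141 CPM in other cells. Of the STRIPAK genes, Mob4 and Strn3 had the highest CPM: Mob4 held 133 and 163 CPM in promyelinating and 186 and 237 CPM in other cells, and Strn3 88.2 and 101 CPM against 74.6 and 59.2 CPM.

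Of 10 adaptors and cofactors tested, 1 passed, and it was lower in promyelinating cells. This was Vgll3, a vestigial-like protein that binds Tead proteins in place of Yap and Taz. Vgll3 held 29.3 and 46.6 CPM in promyelinating, 166 and 150 CPM in cycling and 134 and 141 CPM in other cells. It was 3.43-fold lower in promyelinating than in other cells (log2 fold change -1.78, SE 0.337, adjusted p = 0.0407, edgeR) and 4.33-fold lower than in cycling cells (adjusted p = 0.00932). The call against other cells was lost when the class limits were set at 100 CPM (adjusted p = 0.0663). Amotl1, an angiomotin that binds Yap, held 117 and 152 CPM in promyelinating and 248 and 197 CPM in other cells (adjusted p = 0.390).

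Of 16 other target genes tested, 1 was higher and 1 lower in promyelinating against other cells. The median log2 fold change of the list was -0.69, beside -0.07 over all genes tested. An unadjusted p under 0.05 by edgeR was reached by 5 of the 16, beside 1476 of all 13289 genes tested. Asap1, which activates the GTPase of Arf proteins, held 354 and 308 CPM in promyelinating, 50.9 and 62.8 CPM in cycling and 64.2 and 75.7 CPM in other cells, 5.002-fold higher than in other cells (log2 fold change 2.32, SE 0.274, adjusted p = 0.00455, edgeR). Igfbp3, which binds insulin-like growth factors, held 1.69 and 2.25 CPM in promyelinating, 73.0 and 17.2 CPM in cycling and 67.6 and 43.9 CPM in other cells (log2 fold change -4.75, SE 0.850, adjusted p = 0.0318). Arhgef17, a guanine nucleotide exchange factor and the second of the list by CPM, held 80.6 and 77.4 CPM in promyelinating and 40.0 and 53.8 CPM in other cells and did not pass. Ccdc80, a matrix protein named here after its values were seen, held 5.97 and 3.25 CPM in promyelinating and 57.5 and 28.5 CPM in cycling cells (log2 fold change -3.29, SE 0.711, adjusted p = 0.0335). That call was lost with class limits of 100 CPM (adjusted p = 0.254) and in cells of at least 2500 genes (0.260).

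Of the 3 SC genes tied to Yap, Taz or Tead1, 1 passed against other cells and 2 against cycling cells, all higher in promyelinating cells. That class was set by Ncmap, a gene of myelin-forming SCs, so genes of myelination can be higher in it through the class rule alone. These calls are therefore no separate reading of the pathway. Pmp22, the gene of a protein of compact myelin, held 11460 and 11860 CPM in promyelinating, 1642 and 1876 CPM in cycling and 2052 and 2639 CPM in other cells. It was 5.26-fold higher in promyelinating than in other cells (log2 fold change 2.40, SE 0.154, adjusted p = 0.000672, edgeR). The promyelinating sums thus stood high for Pmp22 and low for Ccn1. Of their windows, that of Ccn1 and 1 of the 4 of Pmp22 hold a GGAATG match, as do 12.6% of all windows. Whether the matches bear on these levels was not tested. Egr2 (Krox20), the transcription factor of myelination and also named after its values were seen, held 333 and 307 CPM in promyelinating, 58.7 and 95.7 CPM in cycling and 147 and 131 CPM in other cells. It passed against cycling cells (log2 fold change 2.01, SE 0.293, adjusted p = 0.00597) and not against other cells (log2 fold change 1.28, adjusted p = 0.0832). Itga6, a laminin receptor subunit, differed more between plates than classes, with 759 and 510 CPM in promyelinating, 707 and 412 CPM in cycling and 760 and 560 CPM in other cells.

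**Figure D5:**
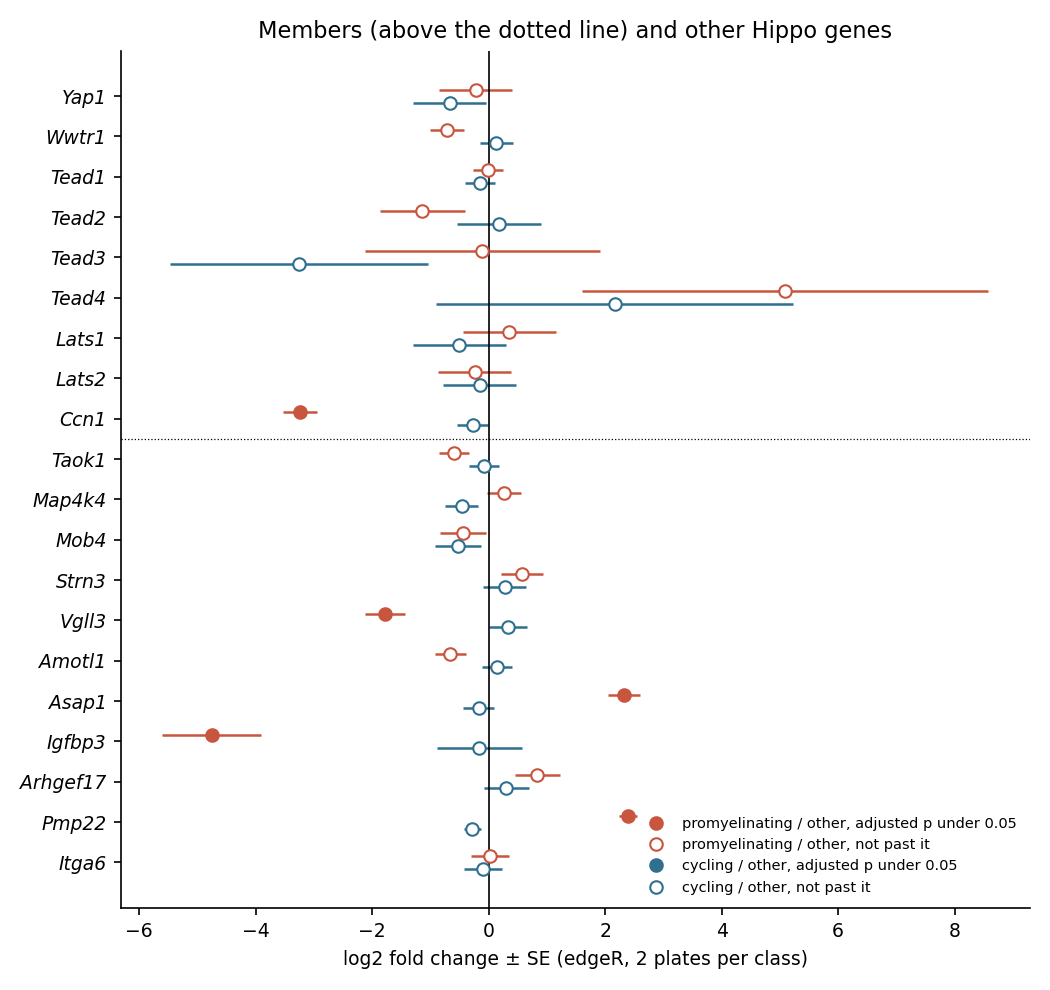
Log2 fold changes with SE (edgeR, 2 plates per class) of the 9 tested members and of the named genes of the other Hippo lists, for promyelinating and cycling cells each against other cells. Filled points pass an adjusted p of 0.05: Ccn1, Vgll3 and Igfbp3 lie to the left and Asap1 and Pmp22 to the right, all in promyelinating cells. Both comparisons share the same other cells.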

How the data were processed

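The deposited file held whole-number read counts per gene and well for 743 wells. The authors made them with bcl2fastq, STAR 2.6.1c and featureCounts on GRCm38.p5 according to their processing notes. Use of strand is not stated, and wells have no molecular identifiers. All 743 columns carried a sample, and 25587 of 25700 gene IDs had a symbol.

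From these counts, CPM per cell set the classes. Counts were summed per plate and class (6 sums) and fitted across genes with edgeR 4.0.16 in R 4.3.3 (TMM, filterByExpr, glmQLFit with robust settings, glmQLFTest), over 13289 genes without Mki67, Top2a and Ncmap. Adjusted p-values follow Benjamini and Hochberg. Each SE is the size of the log2 fold change divided by √F. TPM used exon lengths of GENCODE M21. With 2 plates per class, the p-values rest on a spread between plates within classes. It was estimated jointly for the 3 classes, moderated across genes, and reflects only these 2 pools of mice. Wells held 36 to 2291613 reads, and kept cells had medians of 928401 and 791057 (plates 1 and 2).

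The sums of a plate come from the same mice, so plates pair them. Deviations of the pairs of classes correlated at 0.133, 0.189 and 0.232 over 3707 genes. The fit without the plate as a block is reported. On simulated data of promyelinating against other cells, 28% of 200 changed genes among 13289 were called, and 12.5% of 64 calls were unchanged genes.

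The members and lists were chosen with earlier results of these data known. Named were the 10 members, the called genes of each other list and its 2 most abundant genes, and for each member read in at least 20% of the 621 cells the 3 most similar genes. Alternatives were the plate block, DESeq2 1.42.0, RLE size factors, no filter, limma 3.58.1 on mean cell values (pseudocount 1), thinning to 50000 reads, other limits on genes per cell (1000, 2500) and classes (25, 100 CPM), cells with an SC marker, leaving out a plate, at least 5 reads for a detected gene and cells without a read of Atf3 or of Ier2. Wells under 1500 genes were left out, and no doublet caller was run on these singly sorted cells.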

Additional observations from a re-analysis of the deposited data

How the results depend on the processing

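With the plate as a replicate block, 1, 0 and 1 members were called in promyelinating against other, cycling against other and promyelinating against cycling cells, beside 297, 157 and 891 of all genes. The block turned 1 uncalled value, Lats2 in promyelinating against cycling cells (0.12), and changed no call of a named gene. DESeq2 called 1010, 795 and 2289 of all genes where edgeR called 234, 129 and 777. No filter on low counts gave 525, 326 and 1297, limma 378, 230 and 1340, and thinning 419 and 246 in the comparisons with other cells. Of the other Hippo lists, where edgeR called 4, 0 and 6, DESeq2 called 7, 1 and 12, and no filter, limma and thinning each called 7 in promyelinating against other cells. DESeq2 called 2 members in promyelinating against cycling cells, adding Wwtr1 (adjusted p = 0.0304), and also Amotl1 (0.0320). DESeq2, no filter, limma and thinning each called Egr2 and Ccdc80 in promyelinating against other cells, with adjusted p down to 0.000504 and 5.4e-05.

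In cells without a read of Atf3, 123 of all genes and 2 list genes were called in promyelinating against other cells, and 497 of all genes in promyelinating against cycling cells. In cells without a read of Ier2, the counts of all genes were 15, 0 and 77, those of members 0 in both comparisons of promyelinating cells, and those of the list genes 1 and 1. This setting leaves fewer cells per sum. In the other settings with a test, Ccn1 kept both calls, with adjusted p from 2.8e-27 to 0.0108 against other cells. Plate 1 alone gave a log2 ratio of -2.73 and plate 2 alone -3.75.

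Signs turned only in values that passed no test. The turns listed further on come from settings with both plates. Single plates also turned signs of uncalled members. In cycling against other cells, for example, plate 1 alone gave Wwtr1 -0.08, and plate 2 alone gave Lats1 0.169 and Lats2 0.37. In promyelinating against other cells, Tead1 came to 0.0341 with DESeq2, 0.0341 with RLE factors, 0.0978 with limma, 0.148 thinned, 0.00572 in cells of at least 2500 genes, and 0.0348 and 0.0908 with class limits of 25 and 100 CPM. Tead3 came to 0.297 with limma, 0.0981 thinned, 1.12 at 2500 genes and 0.0407 at 100 CPM, and Yap1 to 0.35 thinned. In cycling against other cells, Tead2 came to -0.11 with limma and -0.0177 thinned, Amotl1 to -0.0802 with limma, -0.15 thinned and -0.0951 at 2500 genes, Strn3 to -0.0291 with limma, Lats2 to 0.11, Taok1 to 0.15 and Ccdc80 to 0.379 at 2500 genes, Igfbp3 to 0.0898 in cells with an SC marker, and Ccn1 to 0.15 in cells without a read of Atf3. In promyelinating against cycling cells, Lats2 came to 0.00644 with limma and 0.0882 at 1000 genes, and Mob4 to -0.0279 at 25 CPM. The cause of these changes was not tested. Tead3, Tead4 and Ccn2 were each read in under 7% of cells, which leaves little precision for them.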
